A study of Mus musculus with 6 samples.

Results

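The expression of 7 genes whose proteins act against enveloped viruses at cell membranes was described in cultured mouse female germline stem cells (FGSCs) with and without knockdown of CTCF. These genes were Ifitm1, Ifitm2, Ifitm3 and Ifitm6 of the interferon-induced transmembrane (IFITM) family, together with Bst2, Ly6e and Ch25h. They were taken by symbol from 24728 symbols with an FPKM value (fragments scaled to the length of the transcript and to the mapped fragments of the library). The 7 genes were chosen by their known role and with the difference between control and knockdown already known from these same samples. Their levels and fold changes are therefore given as a description, and no test is read for them.

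IFITM proteins are short membrane proteins of the plasma membrane and endosomes that hinder the fusion of a viral envelope with the membrane of the cell. Bst2, also called tetherin, encodes a protein that holds budding virions at the cell surface, and Ly6e encodes a lipid-anchored surface protein that impairs the entry of coronaviruses. Ch25h encodes the enzyme that makes 25-hydroxycholesterol, an oxysterol that alters membrane cholesterol and blocks viral fusion. Most of these genes are induced by interferons, which signal from their receptors through JAK kinases to STAT and IRF transcription factors. Ifitm3 is also known as fragilis, a gene known for its expression in nascent germ cells.

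RNA-seq was performed on 3 control samples and 3 shCTCF samples, in which a lentivirus carried a short hairpin RNA against Ctcf, a DNA-binding protein that shapes chromatin loops. Per the labels, all were C57BL/6 FGSCs beyond passage 20, kept on inactivated STO fibroblast feeders. The methods describe the line as derived from neonatal ovaries of Ddx4-Cre;mT/mG mice, in which the germ cell promoter of Ddx4 drives Cre. The samples of the shCTCF group came from cells selected with puromycin. What virus, if any, the control cells received is not given in the sources used here, so the effect of CTCF loss and that of the virus, the selection and the hairpin cannot be told apart. No label says that replicates were separate cultures, so the spread between them may be technical.

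Total counts per sample lay between 1686052 and 7044272 fragments, and control sample 2 was the smallest. Ctcf was at 58.2, 56.1 and 53.5 FPKM in the controls and at 0.740, 0.550 and 0.629 FPKM in the shCTCF samples. On FPKM 9974 genes had a mean level of 1 or more and were tested, and limma called 7280 (73.0%) at an adjusted p under 0.05, 2875 (28.8%) higher and 4405 (44.2%) lower in shCTCF. In 3070 genes (30.8%), all shCTCF values lay above all controls. With every sample scaled to the same median FPKM the calls were 3480 higher and 3606 lower, and edgeR on counts called 2553 higher and 2519 lower. The count of genes for any list given here has to be read beside these shares.

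The label of the cells was checked against germline markers. Of Ddx4, Pou5f1, Dppa3, Gfra1 and Dazl, all 5 were at 0 in each control sample, and no sample exceeded 0.182 FPKM for any of them. Ddx4 had a mean of 0 FPKM in the controls and 0.125 ± 0.081 (SD, n = 3) in shCTCF. The study also used fragilis (Ifitm3) as a marker, which was at 0 to 1.21 FPKM in the controls and 10.4 to 11.1 in shCTCF. The other 5 markers go against the germline label, and the cells are called FGSCs below only because the labels do so. Of 9 genes listed as mast cell markers, 5 were at 1 FPKM or more in every sample. The summed level of these 9 genes was 1330 to 1384 FPKM in the controls and 1499 to 1566 in shCTCF, led by Kit and Gata2, while Fcer1a was listed at 0 in all. Its members went both ways, since Cpa3 was at 281 ± 56.7 FPKM in the controls and 88 ± 13.1 in shCTCF (SD, n = 3 each) and Hdc was at 4.25 ± 0.22 and 87.2 ± 7.6 FPKM, and Gata2 did not pass the threshold. The 9 macrophage markers summed to between 98.5 and 107.7 FPKM in the controls and between 198.3 and 233.7 in shCTCF. Cd68 and Adgre1 led that list, and C1qa and C1qb were listed at 0. Only the leading 2 were at 1 FPKM or more in every sample, so the sum rests mostly on them. Csf1r was lower in shCTCF, at 0.140 ± 0.050 FPKM in the controls and 0.069 ± 0.017 in shCTCF (SD, n = 3 each). The 13 fibroblast markers, which the feeder layer could contribute, summed to 12.4 to 13.1 FPKM in the controls and 23.2 to 24.3 in shCTCF. Col6a1 (0.144 ± 0.049 and 15.3 ± 0.38 FPKM) and Pdgfrb (6.09 ± 0.80 and 2.16 ± 0.15 FPKM) led it and moved in opposite directions, and Col3a1 and Lum were listed at 0. The 8 lymphocyte markers, led by Nkg7 and Cd79a, summed to 0.321 to 1.78 FPKM in the controls and 1.53 to 1.96 in shCTCF. The sums of the mast cell, macrophage and fibroblast lists did not overlap between the groups and were higher in shCTCF, as were 6 of the 7 genes. The higher fibroblast sum rests on Col6a1. Of the 6 fibroblast markers tested 3 were higher and 3 were lower, beside 28.8% and 44.2% of all genes tested. The part of these cell types in the levels given below was not tested. In RNA from a whole culture, fewer cells of a type and less RNA per cell cannot be told apart.

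Because fragilis is a marker by which such cells are recognised, the RT-PCR primers listed by the study for it are shown, with the strand of each given as printed from 5′ to 3′.
Fragilis F: gaagatggtgggtgatgtgact
Fragilis R: agtgtgaaggttttgagcgt
Among the transcripts of the IFITM family, both primers matched Ifitm3 and no other. On the mm9 genome the pair bounded chr7:148195627-148195777, a stretch of 151 bases on the minus strand that lies wholly in exon 2 of the 2 exons of Ifitm3 and wholly in its coding sequence. The forward primer had 3 exact matches in the genome, 1 in Ifitm3 and 1 each on chromosomes 9 and 17, and the reverse primer had 1. The transcript that this assay detects is the one listed at 0 to 1.21 FPKM in the controls and at 10.4 to 11.1 FPKM in shCTCF. The study reports the assay for its long-term cultured FGSCs and not for these samples, so no comparison is made.

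The promoters of the 5 genes that were higher in shCTCF and have an entry are shown for letters known to be bound by interferon-activated factors. The RefSeq promoter table (GRCm38.p6, 250 bases before to 50 after each start) held an entry for 6 of the 7 genes. The entry of Ly6e was not among them. The stretches below run from 200 bases before the start to the base before it. The stretch of Ifitm3 is set 30 bases further because its matches lie just past its start. Capitals mark matches to GAAANNGAAA, the core of the interferon-stimulated response element (ISRE), or to TTCNNNGAA, the core of the STAT-bound GAS element.
Bst2, chr8:71537473-71537672, minus strand: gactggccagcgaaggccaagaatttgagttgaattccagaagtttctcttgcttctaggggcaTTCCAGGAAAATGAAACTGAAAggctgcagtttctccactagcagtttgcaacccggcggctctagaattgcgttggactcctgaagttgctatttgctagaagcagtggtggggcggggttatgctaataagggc
Ifitm3, chr7:141010715-141010914, minus strand: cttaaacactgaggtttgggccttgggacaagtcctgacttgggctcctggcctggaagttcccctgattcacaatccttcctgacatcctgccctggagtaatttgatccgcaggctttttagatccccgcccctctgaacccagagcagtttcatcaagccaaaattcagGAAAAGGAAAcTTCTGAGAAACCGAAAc
Ifitm2, chr7:140955962-140956161, minus strand: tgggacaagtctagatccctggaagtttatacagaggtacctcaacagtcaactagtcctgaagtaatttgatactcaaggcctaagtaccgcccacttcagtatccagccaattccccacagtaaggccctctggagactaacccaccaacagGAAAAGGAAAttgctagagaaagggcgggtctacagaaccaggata
Ifitm1, chr7:140967876-140968075, plus strand: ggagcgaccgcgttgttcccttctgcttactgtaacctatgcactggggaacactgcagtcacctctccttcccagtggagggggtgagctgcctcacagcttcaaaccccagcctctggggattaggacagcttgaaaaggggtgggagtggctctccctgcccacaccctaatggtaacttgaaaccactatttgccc
Ifitm6, chr7:141016893-141017092, minus strand: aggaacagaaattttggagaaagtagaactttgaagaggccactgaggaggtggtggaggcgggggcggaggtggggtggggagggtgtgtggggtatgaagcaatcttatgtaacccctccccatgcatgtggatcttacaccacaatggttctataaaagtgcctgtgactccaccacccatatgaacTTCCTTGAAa
The ISRE core was searched on both strands and was present in the windows of 300 bases of 3 of the 6 genes, namely Bst2, Ifitm3 and Ifitm2. It was present in 1131 of 32851 promoter entries in the whole table (3.44%). Bst2 held 2 matches that overlap each other, between 130 and 115 bases before its start. Ifitm3 held 2 separate matches, from 2 to 11 and from 19 to 28 bases past its start, and Ifitm2 held 1 match between 46 and 37 bases before its start. The GAS core reads the same on both strands and was present in Bst2, Ifitm3 and Ifitm6, compared with 2726 entries (8.30%) of the table. In Bst2 and Ifitm3 it shares bases with an ISRE match. The windows of Ifitm1 and Ch25h held neither. Ifitm1 has 4 records, and only the start given by its entry was searched, so nothing is said about other starts. The 12-letter core of the CTCF motif was in none of the 6 windows and in 183 entries (0.557%) of the table. A match describes letters only, and binding was not measured.

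Ifitm1 had the highest level of the 7 genes in both groups. It encodes the IFITM protein found mainly at the cell surface. Ifitm1 was at 660.0, 641.8 and 714.2 FPKM in the controls and at 1104, 993.0 and 972.2 FPKM in the shCTCF samples. All shCTCF samples lay above all controls. The means were 672 ± 37.6 and 1023 ± 70.8 FPKM (SD, n = 3 each), a ratio of 1.52. By mean FPKM, Ifitm1 ranked 103rd of all symbols in the controls and 53rd in shCTCF. On the log2(FPKM + 1) scale, which is used throughout, the difference was 0.60 (SE 0.07), and 1912 of the 9974 genes tested had a larger one.

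Ifitm2, which encodes an IFITM protein of endosomes, was at 164.7, 165.9 and 189.6 FPKM in the controls and at 250.9, 227.3 and 231.5 FPKM in shCTCF. The groups did not overlap. The means were 173 ± 14.0 and 237 ± 12.6 FPKM (SD, n = 3 each), a ratio of 1.36 and a log2 fold change of 0.45 with a standard error of 0.08. This was the smallest difference among the 6 genes that passed the filter.

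Ifitm3, the endosomal family member best known for blocking influenza virus, was much lower than Ifitm1 and Ifitm2. Its values were 1.00, 0 and 1.21 FPKM in the controls and 10.8, 11.1 and 10.4 FPKM in shCTCF. The control sample listed at 0 was replicate 2, which had the smallest library. The means were 0.737 ± 0.646 and 10.8 ± 0.33 FPKM (SD, n = 3 each), a ratio of 14.6 with a log2 fold change of 2.84 and a standard error of 0.28.

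Ifitm6, a rodent family member described in myeloid cells, was listed at 0 in all 3 controls and at 2.43, 2.66 and 2.80 FPKM in shCTCF. Like Ifitm3, it passed the filter of 1 FPKM only through the shCTCF group, so that a difference was built into its being counted. No fold is given on FPKM because the controls were at 0.

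In all samples nearly the whole IFITM signal came from Ifitm1 and Ifitm2. The summed FPKM of the 7 IFITM genes in the table came to 826.1, 807.7 and 905.05 over control samples 1 to 3 and to 1370, 1235 and 1219 over shCTCF samples 1 to 3. Ifitm1 made up 78.9% to 79.9% of it in the controls and 79.8% to 80.6% in shCTCF, so these ranges overlapped at their edges. The share of Ifitm2 was 19.9% to 20.95% in the controls and 18.3% to 19.0% in shCTCF. Ifitm3 made up at most 0.133% in the controls and between 0.786% and 0.898% in shCTCF. The other family members stayed under 1 FPKM in the mean and were not tested. Ifitm10 was listed at 0 in the controls and at 0.777 ± 0.157 FPKM (SD, n = 3) in shCTCF, Ifitm5, a gene of bone-forming cells, was at 0.170 ± 0.199 and 0.591 ± 0.143 FPKM, and Ifitm7 was at 0.036 ± 0.062 and 0.073 ± 0.064 FPKM.

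Bst2 had the largest difference of the 7 genes on the log2(FPKM + 1) scale, although the ratio of means of the far lower Ifitm3 was larger. It was at 31.3, 32.1 and 27.9 FPKM in the controls and at 374.2, 354.5 and 351.7 FPKM in shCTCF. Every shCTCF sample was far above every control, and the spread within each group was small. The means were 30.4 ± 2.2 and 360.1 ± 12.2 FPKM (SD, n = 3 each), a ratio of 11.8. Its log2 fold change of 3.52 had a standard error of 0.07, and 98 of the 9974 genes tested had a larger one. Its rank among all symbols was 2697 in the controls and 181 in shCTCF.

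Ly6e was at 76.5, 92.3 and 80.3 FPKM in the controls and at 280.4, 262.4 and 242.6 FPKM in shCTCF. The groups did not overlap. The means were 83.0 ± 8.3 and 261.8 ± 18.9 FPKM (SD, n = 3 each), a ratio of 3.15 and a log2 fold change of 1.65 with a standard error of 0.09.

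Ch25h was listed at 0 in all controls and in shCTCF samples 1 and 2, and at 0.066 FPKM in shCTCF sample 3. Its groups overlapped and it did not pass the filter. On the deposited counts it had 1 fragment in that sample and none in the others. In the smallest library a count of 0 allows up to 1.78 CPM (3 counts, scaled to the depth of the library), so a low level of Ch25h was not detectable at this depth.

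**Figure D1:**
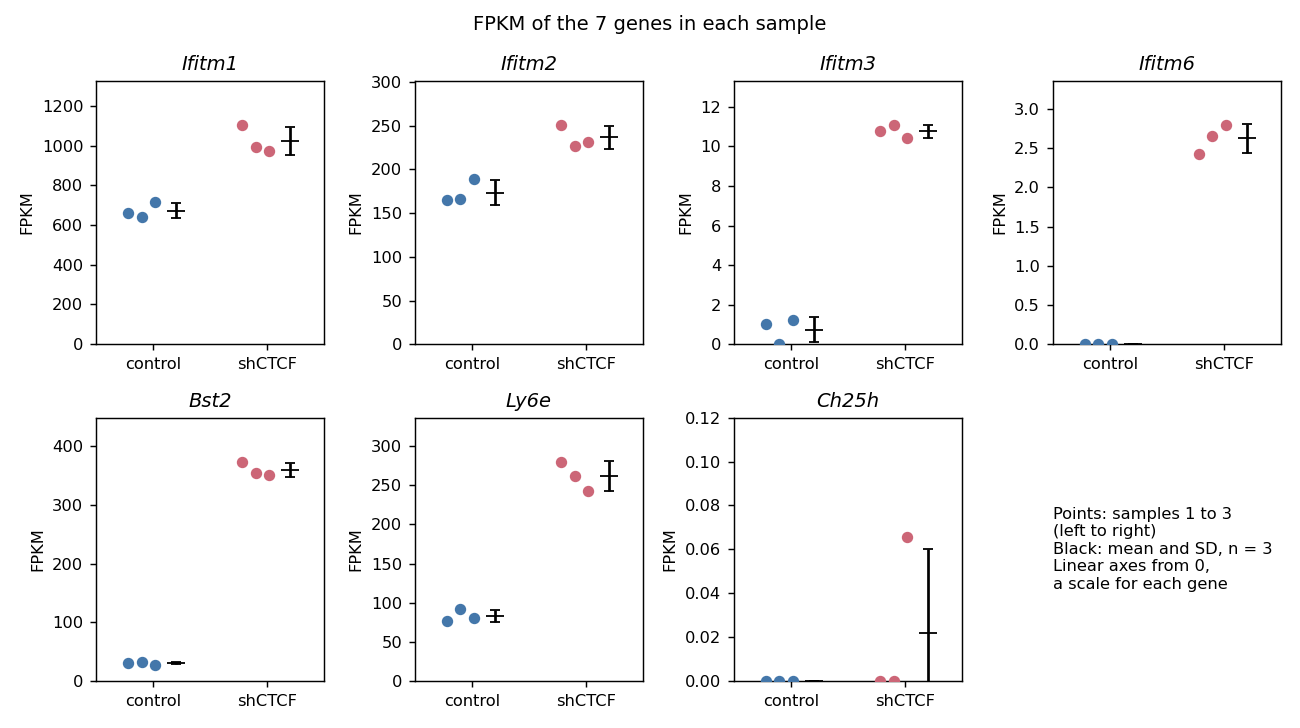
FPKM (linear axis from 0, a scale of its own for each gene) of the 7 genes, with points for samples 1 to 3 of the control and shCTCF groups and a black mark for the mean with its SD (n = 3). In all panels except Ch25h the shCTCF points sit above the controls, by a ratio of 1.36 for Ifitm2 up to 14.6 for Ifitm3, with Ifitm6 listed at 0 in the controls, and Ch25h has a single value above 0, 0.066 FPKM in shCTCF sample 3.

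The order of the levels in the controls was Ifitm1, Ifitm2, Ly6e, Bst2, Ifitm3, with Ifitm6 and Ch25h at 0. In shCTCF it was Ifitm1, Bst2, Ly6e, Ifitm2, Ifitm3, Ifitm6 and Ch25h. Bst2 passed Ly6e and Ifitm2 in this order. Ly6e (242.6 to 280.4 FPKM) and Ifitm2 (227.3 to 250.9 FPKM) overlapped in shCTCF, so their order there lies within the spread of the samples. All other neighbours in the shCTCF order were apart in every sample. In the controls Ifitm3 was at 0 in replicate 2 and so did not stay apart from Ifitm6 and Ch25h, and the other neighbours did. In the FPKM fit 6 of the 7 genes passed the filter and all 6 were past the threshold and higher in shCTCF, beside 28.8% of all genes tested; since this contrast was used to choose the genes, nothing is read from the count. The median log2 fold change of the 6 was 1.75, or 1.65 (the value of Ly6e) without Ifitm6, whose fitted value depends on the pseudocount, while that of all genes tested was -0.17. With every sample scaled to the same median FPKM, the fold changes of the 6 lay between 0.63 (Ifitm2) and 3.70 (Bst2) on the log2 scale, and none changed direction.

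The count table was used as a check. It holds fragments assigned to single RefSeq transcript records, and a fragment that overlaps the exons of more than 1 record was given to none. Ifitm1 has 4 overlapping records, and 162 of its 864 exon bases (18.8%) belong to 1 record only. It had 0 counts in each control and 10, 3 and 12 in shCTCF despite its high FPKM. For Ly6e, with 6 records, no exon base belonged to a single record, and it had 0 counts in all 6 samples. These genes therefore could not be checked on counts in the main fit, and Ctcf had 0 counts throughout as well.

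Bst2, Ifitm2, Ifitm3 and Ifitm6 each have 1 record and could be checked. The counts of Bst2 were 308, 90 and 313 in the controls and 3263, 2782 and 3660 in shCTCF. After scaling to library size (CPM, with TMM factors), it was at 45.2 ± 2.5 and 579.3 ± 21.1 CPM (SD, n = 3 each), and edgeR gave a log2 fold change of 3.68 (SE 0.09). Ifitm2 had 1365, 348 and 1672 counts against 1802, 1498 and 1930, which came to 204.5 ± 23.1 and 312.5 ± 16.9 CPM with a log2 fold change of 0.58 (SE 0.08). Its raw counts alone do not separate the groups as clearly as the scaled ones because the libraries differ in size. Ifitm3 had 7, 0 and 9 counts against 73, 69 and 83, with a log2 fold change of 3.73 (SE 0.32). Ifitm6 had 0, 0 and 1 counts against 26, 25 and 34. The summed counts of Ifitm6, scaled to the summed depth of each group, had a ratio of 72.2 between shCTCF and control, with an exact 95% interval of 12.6 to 2887 that covers counting error only. On counts, 4 of the 7 genes were tested and 4 were higher in shCTCF, beside 34.8% of the 7339 genes tested. Ifitm3 and Ifitm6 passed the count filter only through shCTCF and could only come out higher. Since the genes were chosen on this contrast, nothing is read from this number.

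For genes with several records the division of FPKM between them was less steady than the sum. Ifitm1 had 2 of its 4 records above 0. Its second record carried 129.5, 156.1 and 127.6 FPKM in the controls but 0, 108.2 and 0 FPKM in shCTCF. The shCTCF samples thus did not share one division, and no isoform difference is read from it. Ly6e had 3 of its 6 records above 0, and each of these was higher in every shCTCF sample than in every control. The IFITM transcripts also share sequence. Of the 30-base windows of Ifitm3 transcripts 10.7% recurred in another IFITM gene, compared with 9.20% for Ifitm2, 4.88% for Ifitm1 and none for Ifitm6. Since Ifitm1 and Ifitm2 were far more abundant, the low values of Ifitm3 in the controls are uncertain to that extent.

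**Figure D2:**
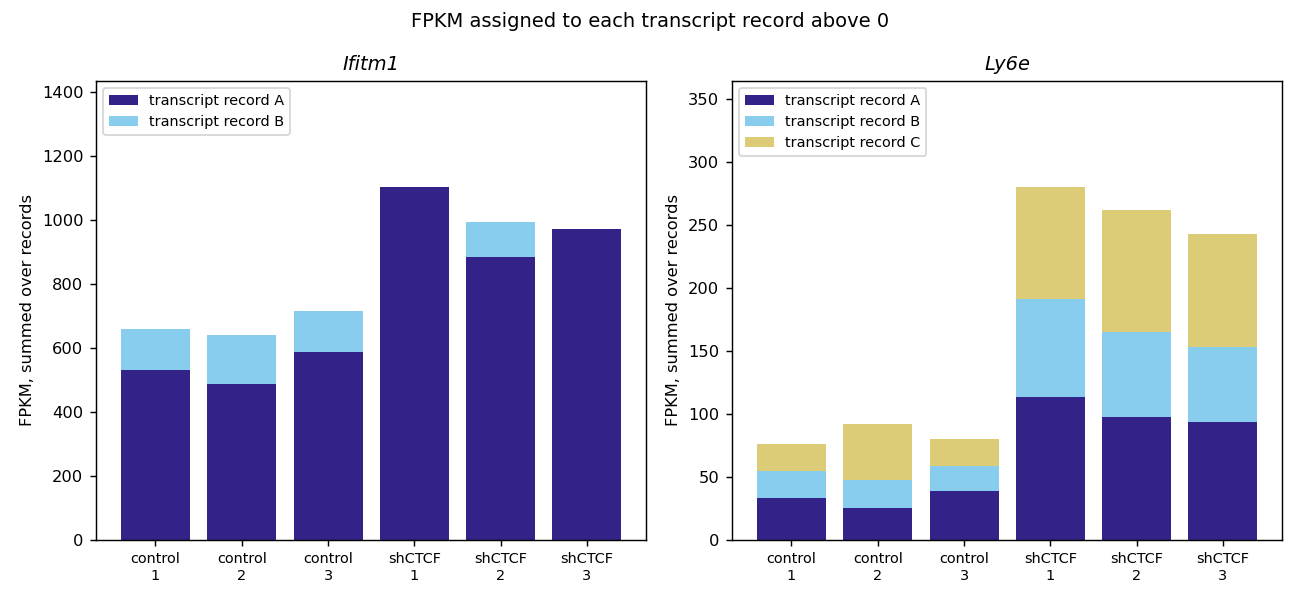
FPKM (linear axis from 0) of Ifitm1 and Ly6e in each sample, stacked by RefSeq transcript record, with records listed at 0 in all samples left out. Record B of Ifitm1 is missing in shCTCF samples 1 and 3 and stands at 108.2 FPKM in shCTCF sample 2, while all 3 records of Ly6e are higher in shCTCF.

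The genes with the pattern most like that of Ifitm1 were named by the Euclidean distance of log2(FPKM + 1) over the 6 samples. The nearest was P4hb, a protein disulfide isomerase, at a distance of 0.296 and with means of 665.0 and 965.2 FPKM. Next were Hspa5, a chaperone of the endoplasmic reticulum (0.473), the ribosomal protein genes Rpl39 (0.498) and Rpl38 (0.702), and Kit, a receptor tyrosine kinase (0.804). This measure rests mostly on like abundance, and Rpl38 overlapped between the groups.

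The signalling genes upstream of interferon-induced genes were then compared between the groups. All 11 interferon ligand genes on the list, including Ifnb1, Ifng and 4 Ifna genes, were listed at 0 in every sample, as was the receptor gene Ifnlr1. Of 26 listed genes 14 passed the filter. Of these, 10 were higher and 2 were lower in shCTCF, beside 28.8% and 44.2% of all genes tested. The median log2 fold change was 1.07. Irf7, a transcription factor that is itself interferon-induced, was at 0.543 ± 0.160 FPKM in the controls and 49.2 ± 1.8 in shCTCF (SD, n = 3 each), a log2 fold change of 5.03 (SE 0.10). Irf1, a related factor, was at 6.02 ± 0.52 and 79.5 ± 8.1 FPKM (log2 fold change 3.52, SE 0.10). Stat2, which carries the signal from the receptors to the nucleus, was at 6.73 ± 0.67 and 69.9 ± 1.3 FPKM, with a log2 fold change of 3.20 (SE 0.08). The 2 lower genes were Irf3, a sensor-activated factor (21.1 ± 3.3 and 10.4 ± 0.9 FPKM, log2 fold change -0.95, SE 0.12), and Ifngr1, a subunit of the interferon gamma receptor (18.7 ± 1.3 and 11.5 ± 1.5 FPKM, log2 fold change -0.66, SE 0.11). On counts only 7 of these genes could be tested, and 6 were higher and 1 was lower. Irf7 had 0 counts in all samples there, and Irf1 and Irf3 had too few to be tested. The differences of Irf7, Irf1 and Irf3 thus rest on FPKM alone. Irf7 also passed the filter only through shCTCF and had to come out higher.

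Genes whose products modify or bind IFITM proteins were called in both directions. Of 11 genes tested, 3 were higher and 3 were lower in shCTCF, beside 28.8% and 44.2% of all genes tested. The other 5 did not pass the threshold, and the median log2 fold change was -0.08. On counts 8 were tested, without Kdm1a, and 4 were higher and 2 lower, with a median log2 fold change of 0.34. Atp6v0b, a subunit of the proton pump that acidifies endosomes, was at 79.2 ± 3.6 and 217 ± 5.2 FPKM (SD, n = 3 each; log2 fold change 1.44, SE 0.06). Setd7, a methyltransferase that acts on IFITM3, had a log2 fold change of 0.82 (SE 0.07), and the palmitoyltransferase gene Zdhhc7 one of 0.37 (SE 0.10). Abhd16a, which encodes an enzyme that removes palmitate, was at 36.7 ± 3.3 and 12.4 ± 0.7 FPKM with a log2 fold change of -1.49 (SE 0.09). Kdm1a, a demethylase, and Nedd4, a ubiquitin ligase that targets IFITM3 for degradation, had log2 fold changes of -0.64 (SE 0.08) and -0.54 (SE 0.06).

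Other restriction factors of membranes were mostly higher in shCTCF. Of 12 listed genes 11 were tested. Of these, 8 were higher and 1 was lower, beside 28.8% and 44.2% of all genes tested. The median log2 fold change was 0.85. Rsad2, which encodes viperin, was at 0.110 ± 0.083 and 51.7 ± 0.9 FPKM (SD, n = 3 each; log2 fold change 5.57, SE 0.09), and it had 2, 2 and 5 counts in the controls against 2316, 2035 and 2545 in shCTCF. Cd74, the invariant chain that can block viral entry, was at 2.87 ± 0.05 and 78.1 ± 12 FPKM (log2 fold change 4.34, SE 0.11). Shisa5, which encodes a protein of the endoplasmic reticulum membrane, had a log2 fold change of 2.24 (SE 0.08). Cd74 and Shisa5 had too few counts to be tested, so their differences rest on FPKM alone. Rsad2 and Gbp5 passed the filter only through shCTCF. Gbp5, a guanylate-binding protein that lowers virion infectivity, was listed at 0 in the controls and at 3.37 ± 0.50 FPKM in shCTCF. Plscr1, a scramblase gene that is itself interferon-induced, went the other way, at 88.3 ± 2.1 and 17.5 ± 1.1 FPKM, with a log2 fold change of -2.27 (SE 0.07). Its counts were 2414, 635 and 2559 in the controls and 773, 702 and 804 in shCTCF.

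The pathway around the product of Ch25h was examined although Ch25h itself was near 0. Of 19 oxysterol and cholesterol genes 13 were tested. Of these, 3 were higher and 8 were lower, beside 28.8% and 44.2% of all genes tested. The median log2 fold change was -0.45. Hsd3b7, which acts on oxysterols on the way to bile acids, was at 6.15 ± 1.1 and 0.438 ± 0.172 FPKM (SD, n = 3 each; log2 fold change -2.31, SE 0.16). Srebf2, the master transcription factor of cholesterol synthesis whose processing 25-hydroxycholesterol inhibits, was at 38.8 ± 1.0 and 9.16 ± 0.56 FPKM (log2 fold change -1.97, SE 0.07). The synthesis gene Sqle and the esterification gene Soat1 had log2 fold changes of -0.99 and -0.89 (SE 0.09 each). The cholesterol transport genes Abcg1 (10.2 ± 0.9 and 33.4 ± 1.1 FPKM) and Npc1 (33.4 ± 0.6 and 103.8 ± 1.8 FPKM) were higher. Their log2 fold changes were 1.62 (SE 0.08) and 1.61 (SE 0.06). Insig1, which retains the SREBP precursor in the endoplasmic reticulum, had a log2 fold change of 0.60 (SE 0.07). The oxysterol pathway genes Cyp7b1 and Cyp27a1 were listed at 0 FPKM in all samples. Hsd3b7 had 0 counts throughout, so its difference rests on FPKM alone. On counts 9 genes of this list were tested, 5 of them higher and 4 lower, with a median log2 fold change of 0.80, so the balance seen on FPKM was not seen there.

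Ly6e belongs to a large family of lipid-anchored surface proteins, most of which were silent. The list held 19 genes, namely other family members and Syna, an endogenous envelope gene whose product syncytin-A binds LY6E in placental cell fusion. Of these, 10 were at 0 in all samples and 3 passed the filter, Ly6a, Ly6c1 and Syna. All 3 passed only through shCTCF, so that being higher was fixed by the filter. Ly6a, also called Sca-1, was at 0.39, 0 and 0.54 FPKM in the controls and at 709.5, 573.6 and 545.0 FPKM in shCTCF. Its log2 fold change was 8.88 (SE 0.17). Ly6c1 was at 0.285 ± 0.166 and 34.5 ± 3.6 FPKM (SD, n = 3 each; log2 fold change 4.79, SE 0.13). Syna was at 0.145 ± 0.095 and 2.21 ± 0.18 FPKM. Ly6a had 0 counts throughout, and its FPKM rests on records that overlap. Ly6c1 had too few counts to be tested. Near-identical copies in this family could also share reads.

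**Figure D3:**
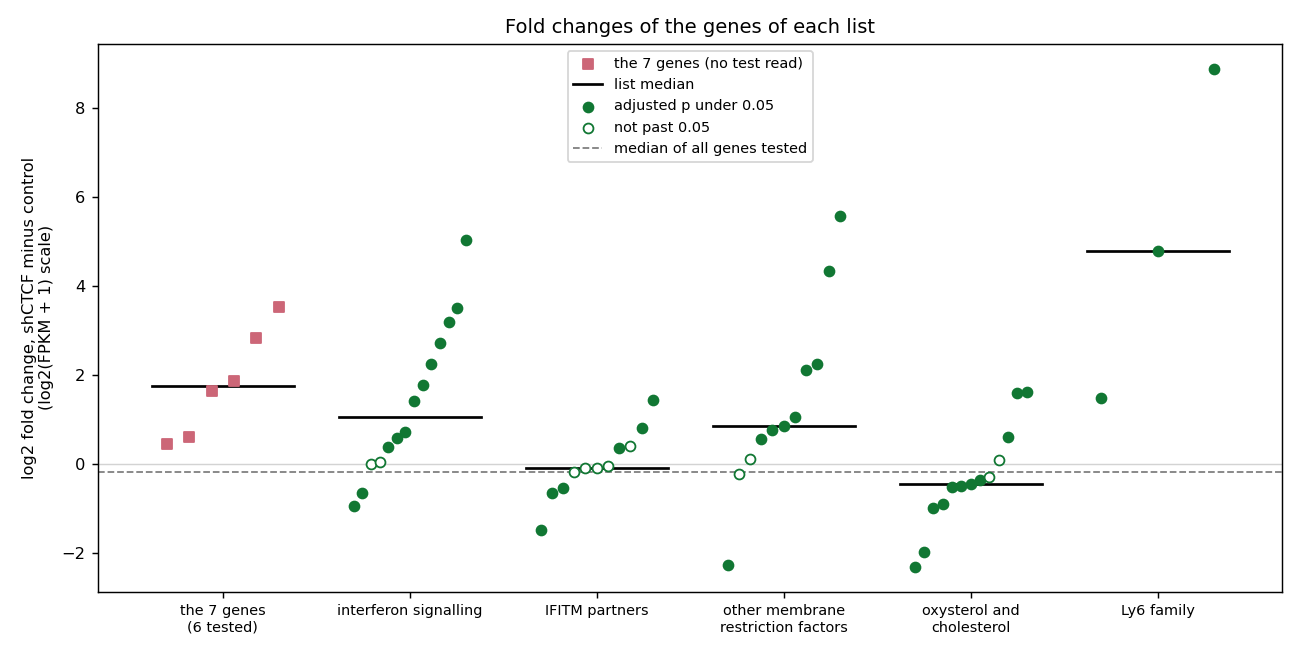
Log2 fold change, shCTCF minus control, on the log2(FPKM + 1) scale for the tested genes of each list, with black lines for list medians and a dashed line for the median of all genes tested (-0.17). Filled circles passed an adjusted p of 0.05 in limma, open circles did not, and squares are the chosen genes, for which no test is read. The interferon signalling list reaches 5.03 (Irf7) and the Ly6 list 8.88 (Ly6a), while 8 of the 13 cholesterol genes tested on FPKM were called lower, a balance not seen on counts (5 higher and 4 lower).

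Finally, the genes around each locus were compared, because CTCF sites bound chromatin domains. Ifitm2, Ifitm1, Ifitm3 and Ifitm6 lie in this order on mm9 at chr7:148140738-148202791, with no gap above 39.8 kb. Bst2 lies at chr8:74058161-74061336, Ly6e at chr15:74785481-74790335 and Ch25h at chr19:34548274-34549625. The 5 nearest tested genes on each side of the 4 loci were taken. Of these 40 neighbours 20 were higher and 10 were lower in shCTCF, beside 28.8% and 44.2% of all genes tested. The median log2 fold change was 0.32. The split was 23 higher and 6 lower with the same-median scaling, and on counts it was 16 higher and 3 lower of 23 tested. On FPKM 8 of the 20 passed the filter only through shCTCF and could only come out higher. Since the loci were chosen with results known, these counts are given as a description.

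Around the Ifitm cluster 5 of 10 neighbours were higher and 2 were lower, beside 28.8% and 44.2% of all genes tested. The immediate neighbours had small fold changes. Pgghg, 7.2 kb away, had a log2 fold change of -0.38 (SE 0.16) and did not pass, while B4galnt4, 44.4 kb away on the other side, had one of 0.29 (SE 0.11). Rnh1, a ribonuclease inhibitor gene 143.4 kb away, was at 69.7 ± 3.6 and 287.6 ± 4.5 FPKM (SD, n = 3 each; log2 fold change 2.03). The lower ones were Sigirr, a regulator of interleukin receptors (20.9 ± 0.6 and 7.25 ± 1.08 FPKM), and Sirt3, a mitochondrial deacetylase. Sirt3 was listed at 15.0, 19.4 and 0 FPKM in the controls and at 0 in shCTCF, so that its groups touched and its value is uncertain.

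Around Bst2 3 of 10 neighbours were higher and 5 were lower on FPKM, beside 28.8% and 44.2% of all genes tested, while on counts 3 of 6 tested were higher and 1 was lower. None approached the fold change of Bst2 itself. Mvb12a, 5.5 kb away, had a log2 fold change of -0.42 (SE 0.09). The lowest were Mrpl34, a mitochondrial ribosomal protein gene (36.6 ± 1.3 and 9.36 ± 0.74 FPKM, SD, n = 3 each), and Pgls, an enzyme gene of the pentose phosphate pathway (85.1 ± 15.4 and 23.9 ± 1.5 FPKM). Their log2 fold changes were -1.86 and -1.78, and Pgls had too few counts to be tested.

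Around Ly6e 4 of 10 neighbours were higher and 3 were lower, beside 28.8% and 44.2% of all genes tested. All 4 higher ones passed the filter only through shCTCF. Ly6a and Ly6c1 are its nearest tested genes on the right, 35.0 and 84.1 kb away, and both had larger log2 fold changes than Ly6e. On the left the nearest tested gene, Ptp4a3, was 1196.3 kb away, so that this side says little about the locus.

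Around Ch25h 8 of 10 neighbours were higher and none was lower, beside 28.8% and 44.2% of all genes tested, although Ch25h was near 0 in both groups. Of these 8, 4 (Lipn, Ifit3, Ifit1bl1 and Ifit3b) passed the filter only through shCTCF and could only come out higher. Lipa, 17.2 kb away, encodes lysosomal acid lipase and had a log2 fold change of 0.82 (SE 0.11). The next 4 on that side were Ifit genes, a cluster of interferon-induced genes whose products bind foreign RNA. Ifit3 was at 0.089 ± 0.087 and 57.3 ± 6.4 FPKM (SD, n = 3 each; log2 fold change 5.74, SE 0.11), and Ifit2 was at 1.77 ± 0.33 and 77.9 ± 4.3 FPKM (log2 fold change 4.84, SE 0.10). Ifit3 and its copy Ifit3b may share reads. Ifit2 had too few counts to be tested, so its difference rests on FPKM alone.

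**Figure D4:**
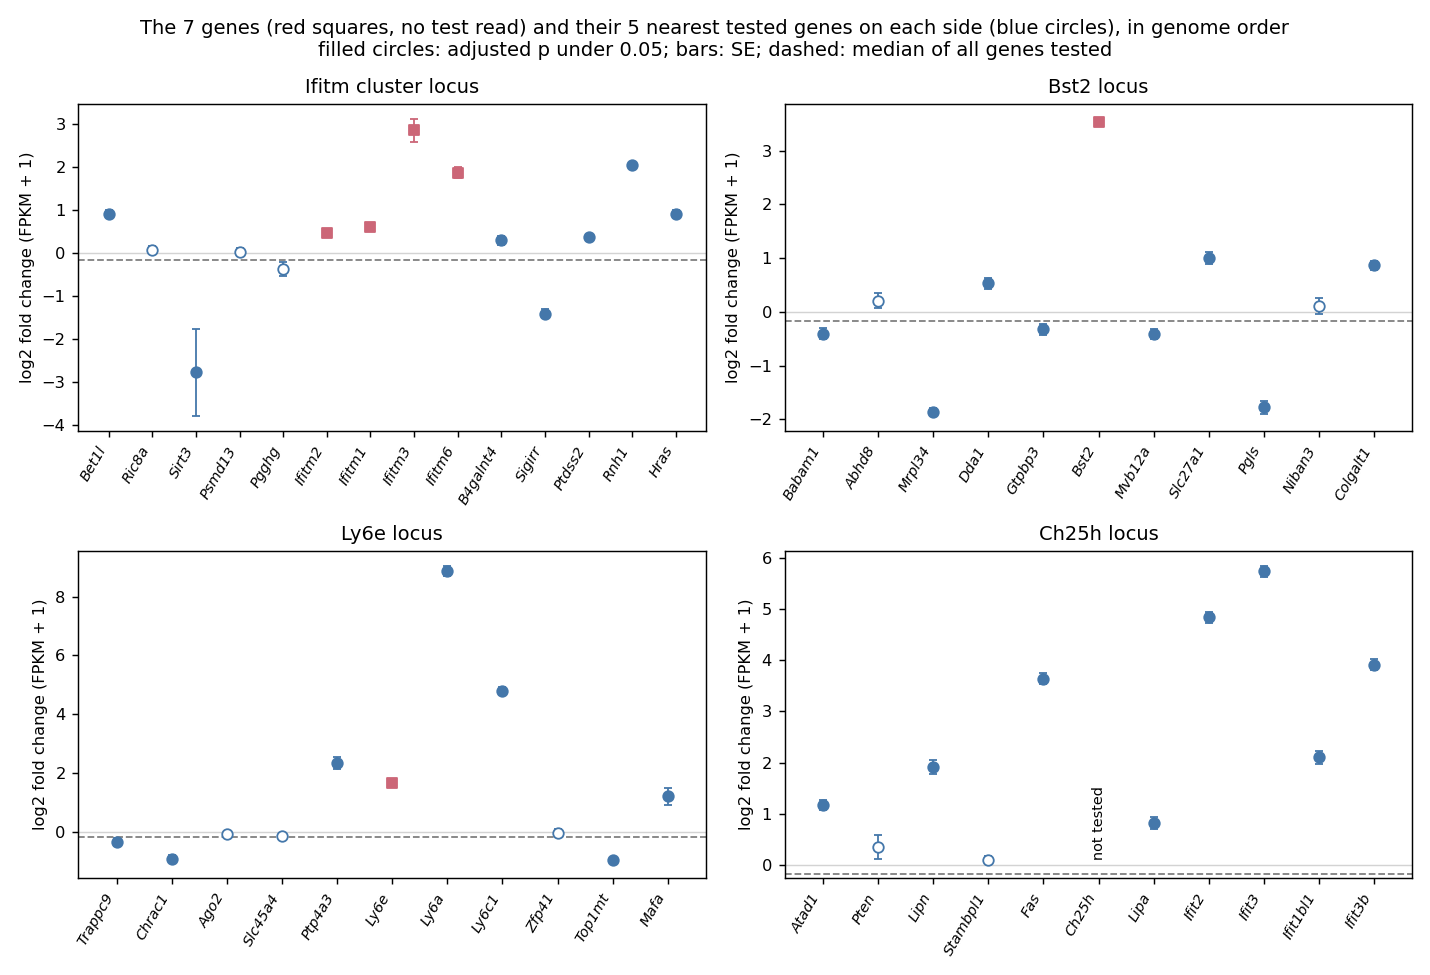
Log2 fold change (log2(FPKM + 1) scale, shCTCF minus control, bars for SE) of the chosen genes (squares, no test read) and of the 5 nearest tested genes on each side (circles, filled where an adjusted p in limma was under 0.05), in genome order along each of the 4 loci. Bst2 stands at 3.52 between neighbours at -0.32 and -0.42, whereas Ly6e at 1.65 lies beside Ly6a at 8.88, and Ch25h, not tested, lies beside the Ifit genes.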

How the data were processed

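Stranded mRNA libraries were aligned by the authors to mm9 with HISAT2. With featureCounts 1.6.2 (file header) the authors made the deposited counts, whole fragments per RefSeq record, without strand and without normalization. The deposited FPKM values were calculated by the authors with Cufflinks 2.2.1 (submitters' processing notes). Records were named with a RefSeq gene table, which matched 41680 of 41876 FPKM rows and 41181 of 41388 count rows, and values were summed per symbol.

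FPKM were tested with limma 3.58.1 (trend) on log2(FPKM + 1) where the mean over samples reached 1 FPKM, and counts with edgeR 4.0.16 (quasi-likelihood, TMM, filterByExpr; R 4.3.3). The p-values were two-sided with Benjamini-Hochberg adjustment over all genes tested, at a threshold of 0.05. The log2 scale with a pseudocount of 1 understates changes of low genes. The fits were also run on simulated data in which few genes changed, evenly split by direction. That setting is unlike the broad change seen here, so no assurance is drawn from it. Coordinates of genes and primers are mm9, counted from 1, and promoters are GRCm38.p6.

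The 7 genes, the lists and the tests were chosen with earlier results of these data known. Named genes were, per list and among the neighbours, up to 4 with the largest and 4 with the lowest fold change past the threshold, the 2 most abundant of each marker list, and the 5 nearest patterns to Ifitm1. A gene that this rule names is not reported here. The other genes named were chosen after their values were seen. They include immediate neighbours and markers or ligands listed at 0. The rest are Lipa, Lipn, Rnh1, Cpa3, Hdc, Csf1r, Ifit1bl1, Ptp4a3, Mvb12a, Pgghg, B4galnt4, Ifit3b, Cyp7b1, Cyp27a1 and Ifnlr1. All replicates differed beyond counting noise (chi-square per degree of freedom 2.07 to 8.17 within groups), and all 6 samples were used. Alternatives were other pseudocounts, filters, scalings and fits, DESeq2 1.42.0, 1 record per gene, the replicate block and the omission of each sample. Floors of 3 counts cover counting error only, since PCR copies were not told apart.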

Additional observations from a re-analysis of the deposited data

How the results depend on the processing

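On FPKM 6 of the 7 genes passed the threshold under all settings tried, except that 5 did with a filter at a mean of 5 FPKM, which Ifitm6 fails. No fold change of the 6 reversed. Ch25h passed no filter and has none. Their log2 fold changes lay between 0.37 and 0.88 for Ifitm1 and Ifitm2 and between 1.59 and 1.83 for Ly6e across the FPKM settings and the omission of each sample, and between 3.47 and 3.70 for Bst2. Ifitm3 and Ifitm6 depended on the pseudocount, with 4.37 and 4.77 at a pseudocount of 0.1. On counts the log2 fold change of Ifitm6 was 5.26 without control sample 1 and 7.70 without control sample 3. All 4 genes tested in the main fit kept their direction. With no count filter, and without any control sample or shCTCF sample 2, 5 of the 7 genes passed on counts. The added gene was Ifitm1, with few fragments, since Ly6e had 0 counts and Ch25h had 1.

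With the count table in place of FPKM, 7 interferon signalling genes, 1 gene of the Ly6 family list (Syna) and 19 neighbours passed the threshold instead of 12, 3 and 30, where fewer of them could be tested (7, 1 and 23). The other restriction factors (9 to 6) and the 7 genes (6 to 4) moved by 1.5 times, and the other lists by less. Without shCTCF sample 2 or 3, 2 genes of the Ly6 family list were called instead of 3, as Syna fell under the filter. Leaving out a sample gave 6577 to 7918 called genes on FPKM and 4616 to 5659 on counts, beside 7280 and 5072.

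The labels give both groups the same replicate numbers, but same-numbered samples did not deviate together (correlations of -0.041, 0.018 and 0.04). The paired fit with a replicate block called 7136 genes on FPKM and 4889 on counts, and 6 and 4 of the 7 genes. It changed no list count by over 1.5 times.

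Depth limits Ch25h, Ifitm6 and the controls of Ifitm3. The count table cannot check Ly6e and holds too few fragments of Ifitm1 to test it in the main fit.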
